A study of Mus musculus with 2 samples.

Results

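Potassium channel genes were examined in single nuclei of mouse hearts after control or PD-1 inhibitor treatment. The genes were chosen by name, as the symbols that begin with Kcn and carry a family letter and a number, with at least 20 UMIs over the 2 count tables. Of 32589 genes in the count tables, 98 had such a symbol and 61 passed the minimum. Kcng4, with 24 UMIs, lay just inside the minimum, and Kcna4 and Kcnt1, with 17 UMIs each, lay just outside. The control library came from male C57BL/6 mice injected with PBS, and the PD-1 inhibitor library from mice of the same strain, sex and age (8 weeks) given an anti-mouse PD-1 antibody intraperitoneally at 5 mg/kg. Injections fell on days 1 and 14 of a cycle that lasted 28 days, and whole cardiac tissue was the source of the nuclei. Each condition is 1 library from an unstated number of hearts. So there is no replicate, no p-value is given, and every interval below is a 95% interval for counting error only.

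Potassium channels carry the outward current that ends the action potential and hold the resting membrane near the potassium equilibrium potential. In ventricular and atrial cardiomyocytes the transient outward current (Kv4 channels, genes Kcnd2 and Kcnd3), the delayed rectifiers (Kcnh2, Kcnq1) and the inward rectifiers (Kcnj2, Kcnj12) act in different phases of repolarisation. In the vessel wall, potassium channels of pericytes and smooth muscle cells set the membrane potential and so the tone of the vessel, and ATP-sensitive channels (Kcnj8 with the sulfonylurea receptor Abcc9) link it to metabolism.

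The control library held 10197 barcodes with 13177525 UMIs and the PD-1 inhibitor library 7967 barcodes with 10875248 UMIs, with medians of 1020 and 1066 UMIs per nucleus. After filters, 9522 and 7644 nuclei remained, and 48 barcode sequences occurred in both libraries, none with identical counts. Clusters were named from marker genes, and the channel genes took no part in the clustering. This gave 1273 control and 1081 PD-1 inhibitor cardiomyocytes, 2814 and 2515 ECs, 2473 and 1969 Fibroblasts, 1258 and 883 MPs, 593 and 424 Mural Cells, and 481 and 462 mesothelial-like cells. The T cells (239 and 193), B cells (175 and 80), adipocytes (154 and 16) and glial cells (30 and 8) were fewer, and 1 proliferating cluster stayed unnamed. In cardiomyocytes the median mitochondrial share was 0.847% in the control and 3.14% in the PD-1 inhibitor library, so values from nuclei with a low share are given beside the results for cardiomyocytes. RNA of cardiomyocytes was found in every other type. The 15 cardiomyocyte markers reached a median of 3.06% to 8.78% of their cardiomyocyte level there in the control library, and 2.17% to 8.24% in the PD-1 inhibitor library.

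The 61 genes comprised 26 voltage-gated pore subunits, 9 auxiliary subunits of voltage-gated channels, 7 calcium- or sodium-activated channels, 3 auxiliary subunits of calcium-activated channels, 7 inward rectifiers, 7 two-pore domain channels and 2 non-coding RNAs. They held 32319 UMIs in the control library, 0.245% of the total, and 24023 UMIs in the PD-1 inhibitor library, 0.221%. Levels are UMIs of a gene per 1000000 UMIs of all genes, added up over all nuclei of a type. They are not set per gene length, so each gene is compared with itself across cell types and libraries. The median annotated span of the 61 genes was 56.0 kb, against 25.1 kb for genes of at least 20 UMIs, and 34 of them overlapped a gene on the opposite strand. Whether strand was used in counting is not given in the sources used here, so reads of such pairs cannot be told apart.

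Most channel genes had 1 cell type in which their level was highest, and the type was the same in both libraries for 51 of the 60 genes that reached 10 UMIs in any type. Levels were ranked only over types with at least 10 UMIs of the gene in both libraries together. Cardiomyocytes held the highest level of 17 genes, Mural Cells of 8, ECs and Fibroblasts of 7 each, mesothelial-like cells of 6, MPs and glial cells of 4 each, T cells of 3, and B cells and adipocytes of 2 each. The separation was sharp for some genes, where the next type is the next of those ranked. Types left out for few UMIs could be higher than that next type. Over both libraries, glial cells were at 47.9 for Kcnn2 (2 UMIs) and at 71.9 for Kcnk13 (3 UMIs). They were at 24.0 for Kcnj3 and for Kcnj11, on 1 UMI each. Kcnj8, the pore subunit Kir6.1 of vascular ATP-sensitive channels, was 43.1 times higher in Mural Cells than in the next type, and Kcnn2, the small-conductance calcium-activated channel SK2, was 29.7 times higher in cardiomyocytes than in the next. Kcnk13, the two-pore channel THIK-1, was 28.3 times higher in MPs than in the next type. Kcnj3, a subunit of the acetylcholine-activated atrial channel, was 22.6 times and Kcnj11, the pore subunit Kir6.2 of the cardiac ATP-sensitive channel, was 21.7 times higher in cardiomyocytes than in the next type. Other genes were shared: Kcnt2, a sodium-activated channel, was 1106 per 1000000 in control Fibroblasts, 599 in control ECs and 522 in control Mural Cells, and its 2 highest types differed by 1.67 times.

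**Figure D1:**
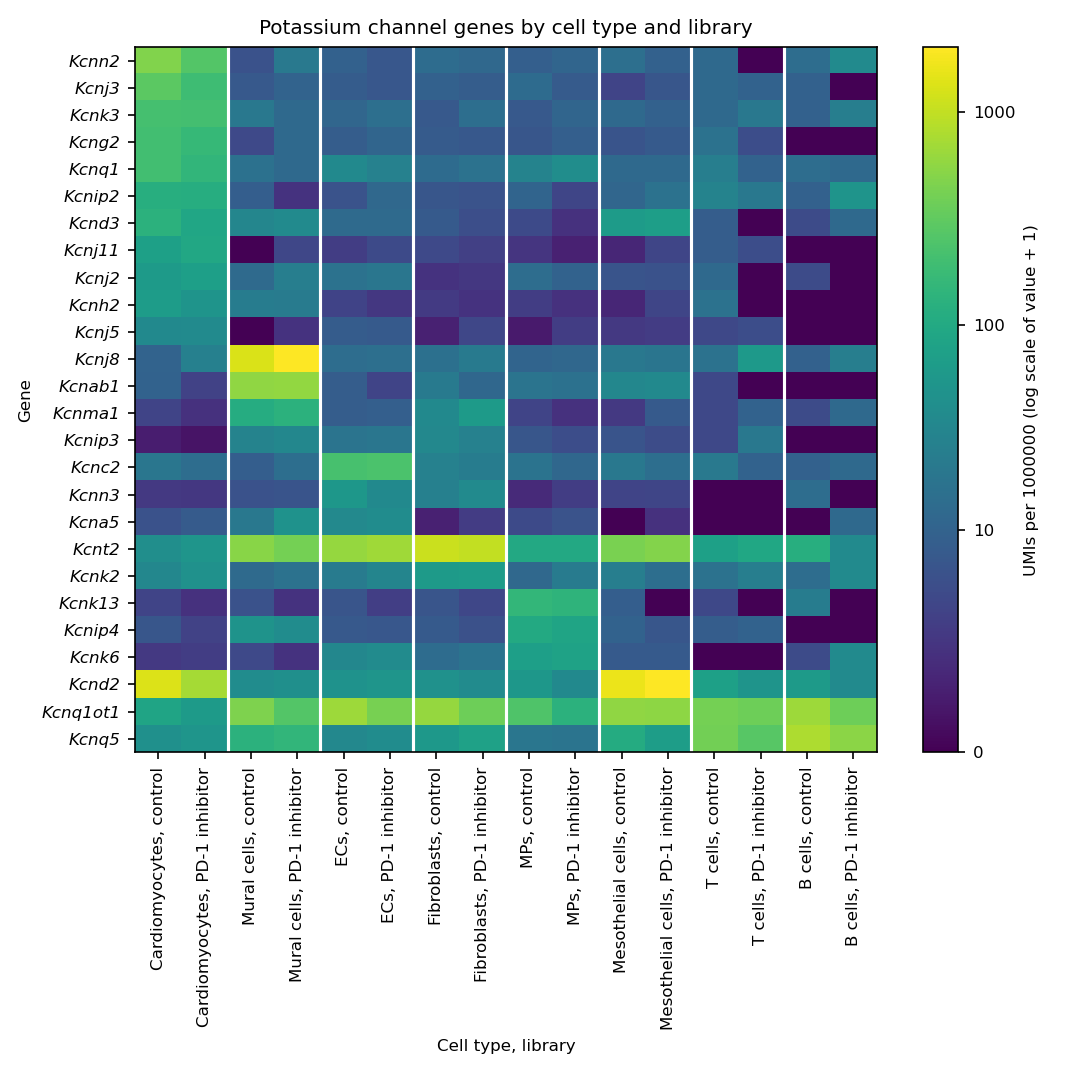
Level of 26 potassium channel genes (rows) in 8 cell types, each with its control and PD-1 inhibitor library side by side, in UMIs per 1000000 on a log scale of value + 1. Bright blocks of Kcnn2 and Kcnj3 lie in cardiomyocytes, of Kcnj8 and Kcnab1 in Mural Cells, of Kcnc2 in ECs and of Kcnk13 in MPs, and Kcnd2 is bright both in cardiomyocytes and in mesothelial-like cells.

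The 250 bases before the start site are shown for the gene with the most UMIs in cardiomyocytes, for its partner subunit, and for the gene with the most UMIs in Mural Cells, since the comparisons below turn on these 3 genes. The sequences are from RefSeq on GRCm38.p6, written 5′ to 3′ on the strand of the gene, with matches to a searched motif in capitals. Kcnd2 is on the plus strand (chr6:21215096-21215345), Kcnip2 on the minus strand (chr19:45816064-45816313) and Kcnj8 on the minus strand (chr6:142571615-142571864).
Kcnd2: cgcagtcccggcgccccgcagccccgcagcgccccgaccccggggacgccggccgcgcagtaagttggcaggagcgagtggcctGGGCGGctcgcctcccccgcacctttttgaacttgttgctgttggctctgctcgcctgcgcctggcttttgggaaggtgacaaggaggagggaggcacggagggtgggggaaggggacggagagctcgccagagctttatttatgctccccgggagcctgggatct
Kcnip2: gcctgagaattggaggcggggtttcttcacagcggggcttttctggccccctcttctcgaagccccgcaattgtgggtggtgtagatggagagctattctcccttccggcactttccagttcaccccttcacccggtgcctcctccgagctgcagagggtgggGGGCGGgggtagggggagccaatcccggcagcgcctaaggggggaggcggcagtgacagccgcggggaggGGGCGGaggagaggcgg
Kcnj8: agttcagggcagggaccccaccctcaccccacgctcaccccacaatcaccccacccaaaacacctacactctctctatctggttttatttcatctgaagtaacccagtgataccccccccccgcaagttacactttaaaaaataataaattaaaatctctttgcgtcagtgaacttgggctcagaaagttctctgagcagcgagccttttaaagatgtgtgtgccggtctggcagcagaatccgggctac
The motifs searched on both strands were TATAAA of the TATA box, GGGCGG of the GC box, CATTCC of the MCAT element, CACGTG of the E-box and GATAAG of the GATA element. The Kcnd2 window was 68.8% GC and held 1 GGGCGG at -166, and the Kcnip2 window was 66.8% GC and held 2 GGGCGG, at -87 and -17, counted from the start site. The Kcnj8 window was 49.2% GC and held none of the 5 motifs. Windows were found for 44 of the 61 genes, 64 windows in all. GGGCGG occurred in 40.6% of these and in 32.7% of all 32851 windows, TATAAA in 0 of 64 against 12.4%, CATTCC in 12.5% against 12.6%, CACGTG in 7.81% against 6.02%, and GATAAG in 6.25% against 6.55%. A match is only a match of letters.

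Cardiomyocytes held fewer potassium channel UMIs per 1000000 in the PD-1 inhibitor library. The sum over all 61 genes was 3702 (8930 UMIs) in the control library and 2618 (5271 UMIs) under PD-1 inhibitor, a log2 ratio of -0.50 (interval -0.55 to -0.45). The difference was unequal between the classes of channel and within them. The voltage-gated pore subunits summed to 2133 and 1367 (-0.64, interval -0.71 to -0.58) and the calcium- or sodium-activated channels to 559 and 340 (-0.72, interval -0.85 to -0.58). Without Kcnd2 the voltage-gated sum was 780 and 638 (-0.29, interval -0.39 to -0.19). Without Kcnn2 the other 6 calcium- or sodium-activated channels summed to 75.0 and 73.5 (-0.03, interval -0.35 to 0.29). The inward rectifiers were closer, at 497 and 436 (-0.19, interval -0.31 to -0.06). Without Kcnj3 the other 6 inward rectifiers summed to 197 and 245 (0.31, interval 0.13 to 0.50). That sum includes Kcnj8, with 25 and 53 UMIs, and is not centred on gene span. Centred on the median of genes of like span, its members Kcnj11 and Kcnj2 were at 0.10 and 0.12, in place of 0.36 and 0.20. For the two-pore channels, at 259 and 264 (0.03, interval -0.14 to 0.20), and for the auxiliary subunits of voltage-gated channels, at 162 and 144 (-0.17, interval -0.39 to 0.06), the interval included 0. Kcnd2, Kcnn2 and Kcnj3 carried much of the sum, and together made up 57.7% of all channel UMIs of control cardiomyocytes and 45.3% of those of PD-1 inhibitor cardiomyocytes.

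In 25 channel genes with at least 50 UMIs in cardiomyocytes, a difference was called where it passed 1.5-fold and its interval left out 0. By this rule 4 genes were lower and 1 was higher in the PD-1 inhibitor library. Of all 9172 genes with as many UMIs in cardiomyocytes, 7.06% were called lower and 7.18% higher, so 4 of 25 is above the share of all genes and 1 of 25 is below it, with few genes. The median log2 ratio of the 25 genes was -0.18 against -0.01 for all genes. Intervals lay wholly below 0 for 7 channel genes and wholly above 0 for 3, while among all genes these shares were 17.0% and 15.4%. In cardiomyocytes with at most 5% mitochondrial UMIs (793 control and 592 PD-1 inhibitor nuclei), 2 channel genes were called in place of 5. The share of all genes called in these fewer nuclei is not given, so the 2 are not set against it. The log2 ratios there were -0.68 for Kcnd2, -0.66 for Kcnn2, -0.57 for Kcnj3, -0.42 for Kcnd3 and 0.42 for Kcnj8, the gene called higher.

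Both Kv4 genes tested in cardiomyocytes, Kcnd2 and Kcnd3, were called lower, and their partner subunit Kcnip2 was not called. Kcnd1, of the same family, had 3 and 1 UMIs there and was not tested. Kcnd2, the Kv4.2 pore subunit of the fast transient outward current in the mouse ventricle, spans 514 kb (chromosome 6, 21215503 to 21729805 on GRCm38, plus strand). It was at 1353 (interval 1307 to 1400, 3264 UMIs) in control cardiomyocytes and at 728 (691 to 767, 1466 UMIs) in PD-1 inhibitor cardiomyocytes, a log2 ratio of -0.89 (interval -0.98 to -0.80). A Kcnd2 UMI was found in 47.1% of control and 34.8% of PD-1 inhibitor cardiomyocytes, at median depths of 1404 and 1428 UMIs. In MPs, which received cardiomyocyte RNA at a low level, the shares were 4.69% and 3.40% at median depths of 902 and 966 UMIs. With every nucleus thinned to 500 UMIs the cardiomyocyte shares were 29.1% and 19.1%, and those of MPs 2.62% and 1.70%. Kcnd3, the related Kv4.3 subunit, was at 134 (323 UMIs) in the control and at 88.4 (178 UMIs) under PD-1 inhibitor, a log2 ratio of -0.60 (interval -0.87 to -0.33), close to the 1.5-fold limit. Kcnip2, the KChIP2 subunit that brings Kv4 channels to the membrane and slows their inactivation, was at 117 (283 UMIs) and 113 (228 UMIs), a log2 ratio of -0.05 (interval -0.31 to 0.21). The interval of Kcnip2 leaves out a difference as large as that of Kcnd2. As a mean over nuclei, or after thinning, the ratio of Kcnd2 was -0.55 and -0.56, just short of 1.5-fold.

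Among the other voltage-gated genes of cardiomyocytes, differences were smaller and none was called. Kcnq1, the pore subunit of the slow delayed rectifier, was at 199 (479 UMIs) in the control and 149 (300 UMIs) in the PD-1 inhibitor library (log2 ratio -0.41, interval -0.63 to -0.20). Kcne1, the small subunit that assembles with it, had only 46 and 31 UMIs (-0.30, interval -1.01 to 0.38), too few to place. Kcnh2, which encodes the ERG subunit of the rapid delayed rectifier, was at 65.9 and 51.2 (-0.36, interval -0.74 to 0.00). Kcng2, a silent subunit that forms no channel on its own, was at 201 and 162 (-0.31, interval -0.52 to -0.11). So the intervals of Kcnq1 and Kcng2 lay below 0. Kcnq5, of the KCNQ family, was at 44.4 and 51.7 (0.22, interval -0.18 to 0.62). Kcna5, which encodes Kv1.5 of the ultrarapid delayed rectifier, had 14 and 16 UMIs in cardiomyocytes and was not tested.

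The inward rectifiers of cardiomyocytes did not move as one. Kcnj3 was lower, at 299 (278 to 322, 722 UMIs) in the control and 191 (173 to 211, 385 UMIs) in the PD-1 inhibitor library (-0.65, interval -0.83 to -0.47). Its partner in the acetylcholine-activated channel, Kcnj5, was at 36.5 (88 UMIs) and 37.3 (75 UMIs) (0.03, interval -0.43 to 0.49). The Kir2 genes of the classical inward rectifier, Kcnj2 and Kcnj12, were at 63.0 and 72.5 (0.20, interval -0.13 to 0.54) and at 12.4 and 10.9 (-0.18, interval -1.05 to 0.66). Kcnj11 was at 73.8 (178 UMIs) and 94.9 (191 UMIs), and its interval lay just above 0 (0.36, interval 0.06 to 0.67) without passing 1.5-fold. Centred on genes of like span, the ratio of Kcnj11 was 0.10. Abcc9 and Abcc8, the sulfonylurea receptors that complete ATP-sensitive channels, were at 357 and 351 and at 131 and 113 in cardiomyocytes. The 1 gene called higher, Kcnj8, had 25 and 53 UMIs in cardiomyocytes and was at 10.4 and 26.3 (1.33, interval 0.63 to 2.09). This was 0.797% and 1.33% of its level in Mural Cells, below the median of the 15 mural markers in cardiomyocytes, 2.54% and 1.98% of their mural level (range 0% to 503% and 0.696% to 462%, with 1 marker at 0 in the control library). The part of mural RNA in the call of Kcnj8 was not tested.

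Among the remaining pore subunits, the calcium-activated Kcnn2 was lower and the two-pore genes were not. Kcnn2 was at 484 (456 to 512, 1167 UMIs) in control and 266 (244 to 290, 536 UMIs) in PD-1 inhibitor cardiomyocytes (-0.86, interval -1.01 to -0.71), and a UMI of it was found in 33.7% and 24.1% of them. Fibroblasts, the next type for Kcnn2 among those with at least 10 of its UMIs, had one in 1.29% and 1.27% of nuclei. Their median depths were 1044 and 1089 UMIs. Kcnn1, the SK1 gene, had 42 and 21 UMIs and an interval that included 0 (-0.72, interval -1.57 to 0.05). Kcnk3, the acid-sensitive two-pore channel TASK-1, was at 216 (520 UMIs) and 210 (423 UMIs), a log2 ratio of -0.04 (interval -0.23 to 0.15). Kcnk2, the stretch- and lipid-sensitive channel TREK-1, was at 33.2 (80 UMIs) and 45.7 (92 UMIs), with an interval just above 0 (0.46, interval 0.01 to 0.91), and at 0.08 with the same mix of clusters.

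**Figure D2:**
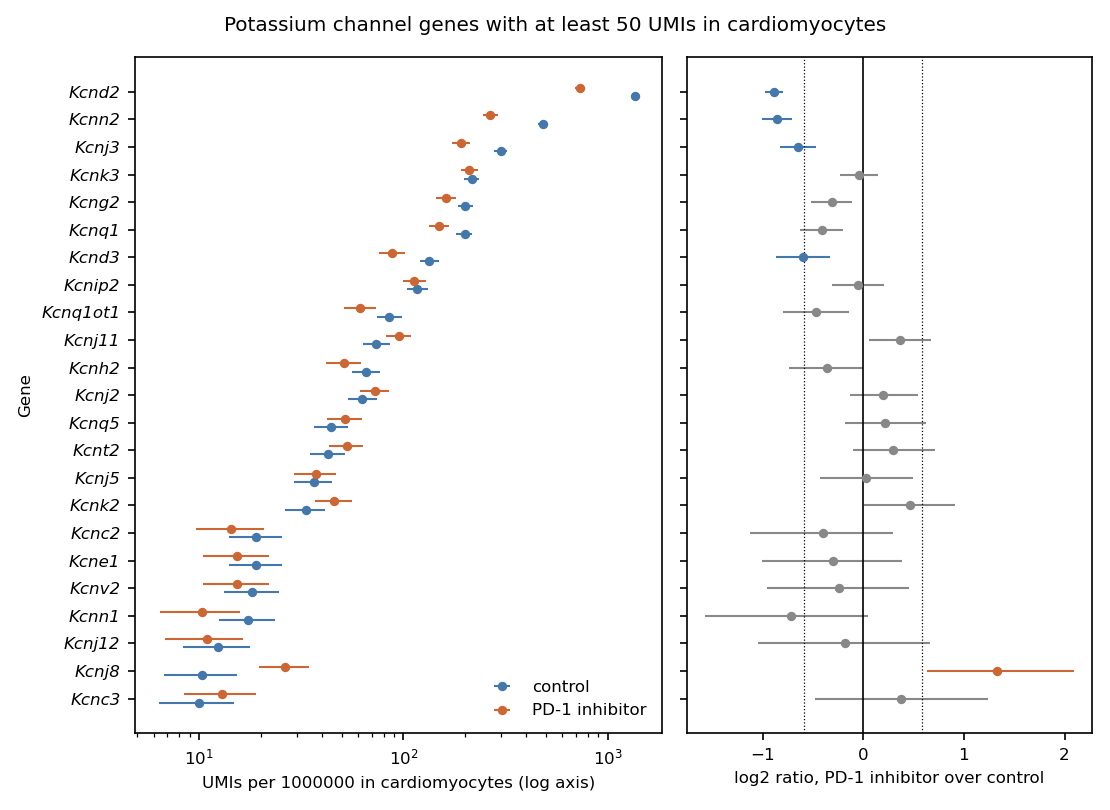
Shown are 23 of the 25 potassium channel genes with at least 50 UMIs in cardiomyocytes. Left, UMIs per 1000000 on a log axis in the control (blue) and PD-1 inhibitor (orange) library with 95% counting intervals; right, the log2 ratio with its interval, where blue marks the 4 genes called lower, orange the 1 called higher, grey the others, and dotted lines 1.5-fold. Kcnd2, Kcnn2, Kcnj3 and Kcnd3 lie at or past the lower line, while Kcnk3 and Kcnip2 lie at 0.

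The 3 clusters of cardiomyocytes differed in their channels. The cluster with Myh7b among its leading genes (740 control and 528 PD-1 inhibitor nuclei, median mitochondrial share 0.357% and 0.688%) had a channel sum of 4567 in the control library. The cluster led by Xirp2, Acta1 and Ckm (493 and 509 nuclei, 9.50% and 8.47%) had a sum of 1685, and the atrial-like cluster, with Sln, Myl4 and Nppa (40 and 44 nuclei, 2.74% and 5.18%), one of 5683. Kcnj3, known for its atrial role, was at 2175 in the atrial-like cluster against 323 in the Myh7b cluster and 100 in the Acta1 cluster of the control library. Kcnd2 was at 1957 in the Myh7b cluster, 776 in the atrial-like cluster and 100 in the Acta1 cluster, whereas Kcnip2 was at 121 and 112 in the Myh7b and Acta1 clusters. Kcnk2 was at 97.7 in the Acta1 cluster against 3.74 in the Myh7b cluster. The mix of the clusters differed between the libraries: the Myh7b cluster gave 66.6% of cardiomyocyte UMIs in the control and 53.2% under PD-1 inhibitor, and the Acta1 cluster 31.0% and 42.7%.

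Within the clusters the lower level of Kcnd2 was seen where the gene was high. Kcnd2 was at 1957 and 1256 in the Myh7b cluster (-0.64, interval -0.73 to -0.55), at 776 and 279 in the atrial-like cluster (-1.46, interval -2.26 to -0.72), and at 100 and 113 in the Acta1 cluster (0.17, interval -0.28 to 0.62). Without the Myh7b cluster its log2 ratio was -0.24 (interval -0.61 to 0.14), so its call rests on that cluster. Kcnn2 was at 682 and 449 in the Myh7b cluster (-0.60) and at 72.3 and 54.7 in the Acta1 cluster (-0.40, with an interval that included 0). Kcnj3 had intervals below 0 in all 3 clusters, at 323 and 221 in the Myh7b cluster (-0.54), 100 and 60.5 in the Acta1 cluster (-0.73, interval -1.27 to -0.20), and 2175 and 1165 in the atrial-like cluster (-0.90, interval -1.30 to -0.51). Without the Myh7b cluster Kcnd3 was at -0.02 (interval -0.97 to 0.95), and Kcnd3 within that cluster was at 189 and 146 (-0.38, interval -0.67 to -0.10). Kcnq1 was at 267 and 234 within the Myh7b cluster (-0.19, interval -0.42 to 0.04). With the same mix of clusters in both libraries, the log2 ratios were -0.62 for Kcnd2, -0.61 for Kcnn2, -0.64 for Kcnj3 and -0.35 for Kcnd3.

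**Figure D3:**
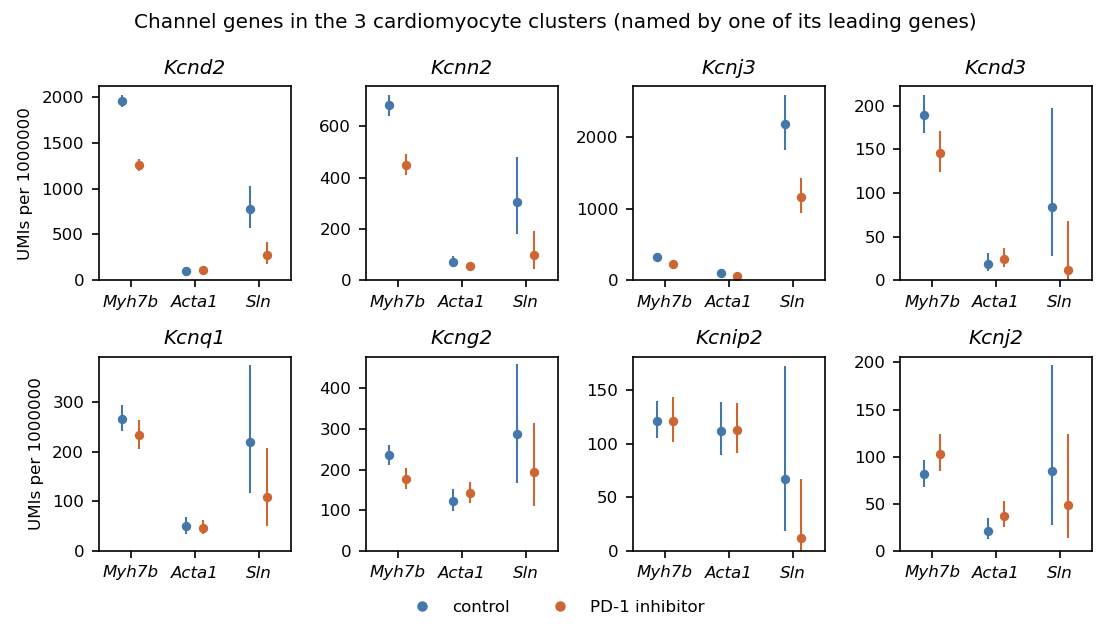
Level of 8 channel genes, in UMIs per 1000000 with 95% counting intervals, in the Myh7b, Acta1 and atrial-like (Sln) clusters of cardiomyocytes, control in blue and PD-1 inhibitor in orange. Kcnd2, Kcnn2 and Kcnd3 are high in the Myh7b cluster and lower there in the PD-1 inhibitor library, Kcnj3 is highest in the Sln cluster, and Kcnip2 is alike in the Myh7b and Acta1 clusters.

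Gene span moved with the ratio in cardiomyocytes. With all genes put in 5 equal groups by annotated span, the median log2 ratio was 0.26 in the shortest group, then 0.08, 0.02 and -0.10, and -0.27 in the longest. Of the 25 channel genes, 11 lay in the longest group, and the 4 genes called lower spanned 162 kb (Kcnj3) to 514 kb (Kcnd2), against 24.2 kb for Kcnip2. Centred on the median of genes of like span, the log2 ratio was -0.62 for Kcnd2, -0.59 for Kcnn2, -0.37 for Kcnj3, -0.32 for Kcnd3 and -0.14 for Kcnq1. So after this centring the difference of Kcnd2 and Kcnn2 was still just past 1.5-fold, and that of Kcnj3 and Kcnd3 was reduced below it. Centring took off a group median only. It covers neither the spread of genes of like span nor a trend with span inside the longest group, which were not tested. Kcnq1 was short of 1.5-fold before centring as well. Length, cluster mix and mitochondrial share moved together between the libraries, and their parts in these ratios cannot be told apart beyond these values.

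**Figure D4:**
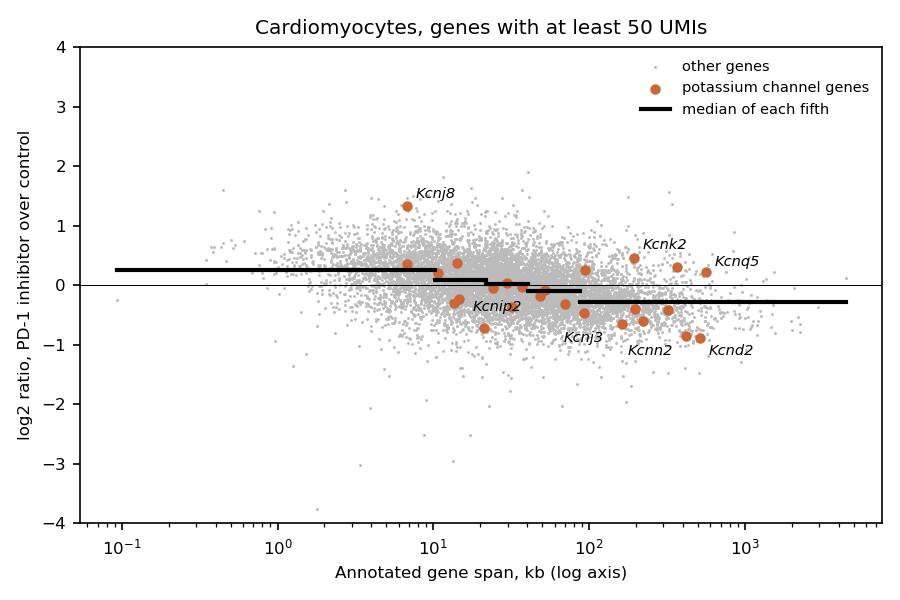
Log2 ratio of PD-1 inhibitor over control in cardiomyocytes against annotated gene span in kb (log axis) for 9168 genes with at least 50 UMIs and a known span; orange points are the 25 channel genes and black lines the medians of 5 equal groups of span. The black lines step down from 0.26 to -0.27, and Kcnd2 and Kcnn2 lie below the line of the longest group.

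In Mural Cells the inward rectifier Kcnj8 was higher in the PD-1 inhibitor library. The other 6 inward rectifiers together had 23 and 21 UMIs there (0.38, interval -0.55 to 1.29). The channel sum was 3699 in the control and 4213 in the PD-1 inhibitor library (0.19, interval 0.10 to 0.27), and without Kcnj8 the ratio was -0.10. Kcnj8 (chromosome 6, 142564837 to 142571614, minus strand) was at 1300 (interval 1216 to 1388, 894 UMIs) and 1980 (1857 to 2110, 958 UMIs), a log2 ratio of 0.61 (interval 0.47 to 0.74). Kcnj8 spans only 6.78 kb, and centred on genes of like span its ratio was 0.37, short of 1.5-fold. A Kcnj8 UMI was found in 57.3% of control and 68.9% of PD-1 inhibitor Mural Cells at median depths of 967 and 976, and in 1.14% and 1.35% of ECs at 898 and 951. Thinned to 500 UMIs the mural shares were 41.7% and 56.8%. Of 9 channel genes tested in Mural Cells, Kcnj8 was called higher and the antisense RNA Kcnq1ot1 lower, where 6.0% of all 5217 genes were called higher and 6.11% lower. The median of the 9 genes was 0.17 against -0.02 for all genes. Abcc9, the receptor that pairs with Kcnj8 in pericytes and smooth muscle, was at 4291 and 4589 (0.10, interval 0.02 to 0.18).

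The 2 mural clusters carried different channels. Kcnj8 belonged to the pericyte-like cluster with Vtn (490 and 369 nuclei), where it was at 1638 and 2419 (0.56, interval 0.43 to 0.70), and the smooth muscle-like cluster with Myh11 (103 and 55 nuclei) had 1 and 0 UMIs of it. Kcnab1, a beta subunit of Kv1 channels, and Kcnma1, the pore of the large-conductance BK channel, had the reverse pattern. In the smooth muscle-like cluster Kcnab1 was at 2382 and 2907 (0.29, interval 0.05 to 0.53) and Kcnma1 at 485 and 718 (0.57, interval 0.05 to 1.08). In the pericyte-like cluster Kcnab1 was at 95.4 and 80.8, and Kcnma1 had 7 and 2 UMIs. Over both clusters together, Kcnab1 was at 569 and 593 (0.06, interval -0.16 to 0.28) and Kcnma1 at 111 and 134 (0.28, interval -0.22 to 0.78). The share of Mural Cells with a Kcnab1 UMI was 18.0% in the control and 11.1% in the PD-1 inhibitor library, where 55 of 424 Mural Cells were smooth muscle-like, against 103 of 593 in the control. The ratio of Kcnab1 was -0.79 after thinning and -0.71 as a mean over nuclei, and the cause of this change of sign was not tested. Kcnmb1, the beta subunit that makes BK channels more sensitive to calcium in smooth muscle, had 31 and 34 UMIs (0.64, interval -0.11 to 1.39). Of these, 21 and 29 were in the pericyte-like cluster (0.92, interval 0.07 to 1.81). The smooth muscle-like cluster had 10 and 5 (-0.23, interval -2.20 to 1.38).

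Of the other mural genes, Kcnt2 and Kcnq5 went in opposite directions in the clusters. Kcnt2 was at 614 and 437 in the pericyte-like cluster (-0.49, interval -0.77 to -0.22) and at 169 (24 UMIs) and 308 (27 UMIs) in the smooth muscle-like cluster (0.86, interval 0.02 to 1.72). Kcnq5, a KCNQ channel of vascular smooth muscle, was at 86.2 and 45.5 in the pericyte-like and at 309 and 616 in the smooth muscle-like cluster. Kcna5 had 14 and 23 UMIs in Mural Cells, under the minimum for a call (1.20, interval 0.20 to 2.30).

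**Figure D5:**
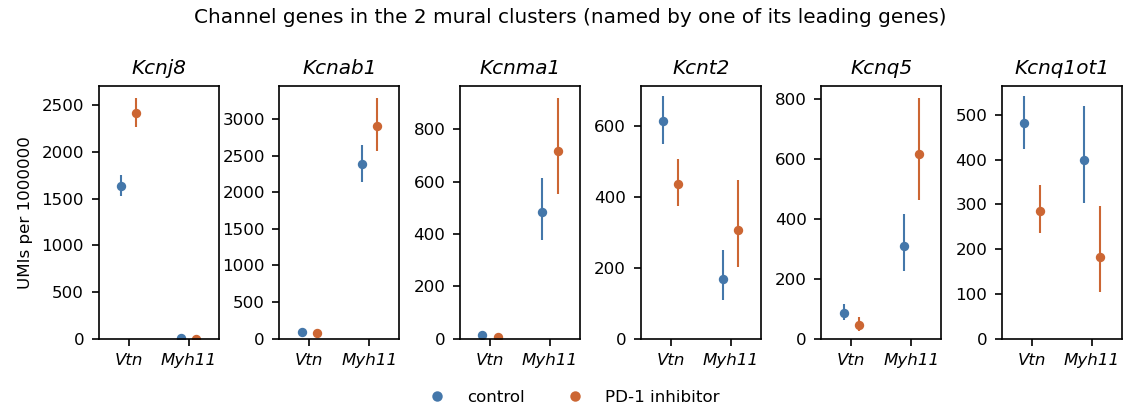
Level of 6 channel genes, in UMIs per 1000000 with 95% counting intervals, in the pericyte-like (Vtn) and smooth muscle-like (Myh11) clusters of Mural Cells, control in blue and PD-1 inhibitor in orange. Kcnj8 is found in the Vtn cluster and is higher there in the PD-1 inhibitor library, Kcnab1 and Kcnma1 are found mainly in the Myh11 cluster, and Kcnq1ot1 is lower in both clusters.

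Mesothelial-like cells, the epithelial cover of the heart, held the highest level of Kcnd2 of all types. Kcnd2 was at 1617 (interval 1529 to 1708, 1279 UMIs) in the control and 2026 (1940 to 2114, 2102 UMIs) in the PD-1 inhibitor library (0.33, interval 0.22 to 0.43), and a UMI of it was found in 63.0% and 71.9% of nuclei at median depths of 1293 and 1724 UMIs. This was 119% and 278% of the cardiomyocyte level, against a median of 4.92% and 4.60% for the cardiomyocyte markers in the same cells. The part of cardiomyocyte RNA in the level of Kcnd2 there was not tested. The ratio of Kcnd2 had the opposite sign to that in cardiomyocytes, and did not pass 1.5-fold. Kcnd3 was at 64.5 and 71.3, Kcnt2 at 436 and 488, and Kcnk5, the alkali-activated two-pore channel TASK-2, at 53.1 and 49.1, with intervals that included 0. Of 7 genes tested, Kcnq5 alone was called lower, at 106 and 68.4 (-0.63, interval -1.11 to -0.16, and -2.04 after thinning), and 0 were called higher, where 4.50% and 3.96% of all 7281 genes were.

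In ECs, 22 channel genes were tested, of which 2 were called lower and 1 higher, where 3.88% and 5.31% of all 10706 genes were. Kcnn3, the SK3 channel that takes part in endothelium-dependent dilation, was at 55.3 (165 UMIs) in the control and 35.9 (104 UMIs) in the PD-1 inhibitor library (-0.62, interval -0.99 to -0.26). Its highest level was in the cluster led by Mmrn1 and Reln, at 294 and 242 (-0.27, interval -0.82 to 0.25), and in the cluster led by Nrg1 it had 13 and 2 UMIs. Without the cluster led by Nrg1 the ratio of Kcnn3 in ECs was -0.43 (interval -0.81 to -0.06), and without the cluster with Sema3g it was -0.56 (interval -0.94 to -0.19), both short of 1.5-fold. The gene called higher, Kcnip2, had 18 and 35 UMIs, at 5.14% and 10.7% of its cardiomyocyte level, within the range of the cardiomyocyte markers in ECs (2.48% to 11.6% and 2.96% to 10.7%). The marker median in ECs was 5.95% and 6.21%, and the part of cardiomyocyte RNA in the call of Kcnip2 was not tested. Kcnc2, a Kv3 channel with its highest level in ECs, was at 220 and 233 (0.08, interval -0.07 to 0.24). Within ECs it was at 438 and 394 in the cluster led by Ahsg and Plagl1, 423 and 454 in the cluster with Wnt9b, 209 and 255 in the cluster with Aplnr, and 41.3 and 47.0 in the cluster with Nrg1. Kcnt2 was at 599 and 676 (0.17, interval 0.08 to 0.27), and at -0.06 with EC clusters weighted alike in both libraries. Kcnk6, the two-pore channel TWIK-2, was at 32.9 and 38.6 (0.23, interval -0.17 to 0.64). Kcna5 was at 34.9 and 39.0 in all ECs and at 100 and 147 in the cluster with Aplnr (0.55, interval 0.12 to 0.97).

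In Fibroblasts, 21 channel genes were tested, with 2 called higher and 2 called lower, where 4.89% and 3.30% of all 10583 genes were. Kcnt2, the channel gene with the most UMIs in Fibroblasts, was at 1106 (interval 1068 to 1144) in the control and 1008 (969 to 1048) in the PD-1 inhibitor library (-0.13, interval -0.21 to -0.06), with a UMI in 54.7% and 51.1% of nuclei. Kcnma1 was called higher, at 36.5 (109 UMIs) and 62.8 (156 UMIs) (0.78, interval 0.42 to 1.15). It lay mainly in the cluster led by Wif1 and Chad (99 and 81 nuclei), at 588 and 787 there (0.42, interval 0.02 to 0.82). This cluster gave 5.01% of Fibroblast UMIs in the control and 7.0% under PD-1 inhibitor. Without it the ratio of Kcnma1 was 0.16 (interval -0.82 to 1.12), and as a mean over nuclei it was 0.22. Kcnk3 was called higher with 22 and 36 UMIs (0.96, interval 0.17 to 1.81). Its level was 3.42% and 6.89% of that in cardiomyocytes, within the range of the cardiomyocyte markers in Fibroblasts (2.26% to 9.30% and 2.40% to 7.74%), and without the cluster with Rgs17 the ratio was 0.63 (interval -0.37 to 1.69), as it was 0.74 (interval -0.23 to 1.77) without the cluster with Nkain2. Kcnab1 was called lower with 67 and 29 UMIs (-0.93, interval -1.62 to -0.29). Its level was 3.94% and 1.97% of that in Mural Cells, within the range of the mural markers in Fibroblasts (0% to 12.5%, with 1 of 15 at 0, and 0.187% to 15.4%), and without the cluster with Nkain2 the ratio was -0.70 (interval -1.77 to 0.26). The part of RNA from other cells in these calls was not tested. Kcnk2 had its highest level in Fibroblasts, at 62.2 and 66.8 (0.10, interval -0.21 to 0.41). The intervals of Kcnq5, at 57.6 and 78.0 (0.44, interval 0.14 to 0.74), and of Kcnn3, at 26.8 and 37.0 (0.47, interval 0.02 to 0.92), lay above 0 without a call. Without the Wif1 and Chad cluster the ratio of Kcnq5 was 0.07 (interval -0.46 to 0.59), and after thinning it was -0.20.

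In MPs, 9 channel genes were tested, with 2 called lower and 0 higher, where 5.20% and 5.61% of all 7974 genes were. Kcnk13, which in microglia is linked to inflammasome activity, was at 156 (209 UMIs) in the control and 142 (143 UMIs) in the PD-1 inhibitor library (-0.14, interval -0.45 to 0.18), with a UMI in 11.4% and 10.6% of nuclei. Kcnip4 was at 100 and 84.4, Kcnk6 at 71.8 and 79.5 and Kcnt2 at 98.7 and 99.3, with intervals that included 0. Kcnd2 was called lower in MPs, at 55.3 and 35.8, but at 4.09% and 4.91% of its cardiomyocyte level, near the median of 5.66% and 5.39% of the cardiomyocyte markers there. The part of cardiomyocyte RNA in this difference was not tested.

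In the lymphocytes, Kcnq5 was at 395 (94 UMIs) and 278 (55 UMIs) in T cells (-0.50, interval -1.01 to -0.01) and at 787 (165 UMIs) and 542 (43 UMIs) in B cells (-0.53, interval -1.06 to -0.05), its highest level of any type. Kcnn4, the calcium-activated KCa3.1 channel that supports calcium entry in activated T cells, was at 227 and 207 in T cells (-0.13, interval -0.75 to 0.48). In adipocytes, whose leading genes included Ucp1, Kcnk3 was at 560 (202 UMIs) in the control and 321 (18 UMIs) in the PD-1 inhibitor library (-0.77, interval -1.58 to -0.10), called lower on 16 nuclei, where 11.0% of all 1900 genes were lower and 7.42% higher. When every nucleus was thinned to 500 UMIs its ratio was 0.13, and the cause of this change was not tested. In glial cells the Kv1 genes Kcna2, with 43 and 10 UMIs, and Kcna1, with 32 and 12 UMIs, which sit near the nodes of myelinated axons in nerve, were at 1328 and 1071 and at 988 and 1285 on 30 and 8 nuclei, and their intervals included 0.

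Kcnq1ot1, the long non-coding RNA made antisense to Kcnq1 from an imprinted domain (chromosome 7, 143203458 to 143296549, minus strand), was the gene called in the most cell types. It was at 667 and 425 in ECs (-0.65, interval -0.75 to -0.55), 599 and 381 in Fibroblasts (-0.65, interval -0.77 to -0.54), 464 and 267 in Mural Cells (-0.80, interval -1.11 to -0.50) and 245 and 132 in MPs (-0.89, interval -1.19 to -0.60). Centred on genes of like span, Kcnq1ot1 had a log2 ratio of -0.48 in ECs and in Fibroblasts, short of 1.5-fold, and of -0.69 in MPs. It was also called lower in B cells, at 658 and 378 (-0.78, interval -1.42 to -0.22), where 9.88% of all 1286 genes were lower and 8.16% higher, and in adipocytes, at 443 and 178 (-1.25, interval -2.40 to -0.40, and -0.24 after thinning). In mesothelial-like cells no difference was detectable, and Kcnq1ot1 was at 578 and 560 there (-0.05, interval -0.22 to 0.13). In T cells it was at 416 and 379 (-0.13, interval -0.59 to 0.31), and in cardiomyocytes at 85.4 and 61.6 (-0.47, interval -0.80 to -0.14, and -0.19 centred on genes of like span). Kcnq1ot1 overlaps Kcnq1 on the other strand, so the sum of both cannot be divided with certainty. Kcnq1 was highest in cardiomyocytes, where Kcnq1ot1 was lowest of the 9 types with at least 50 of its UMIs. How reads of the overlap were assigned was not tested.

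The channel sums of the remaining types depended in part on Kcnq1ot1. They were 2080 and 1910 in ECs (-0.12, interval -0.18 to -0.07), 2278 and 2006 in Fibroblasts (-0.18, interval -0.24 to -0.13) and 1056 and 878 in MPs (-0.27, interval -0.39 to -0.14). Without Kcnq1ot1 the log2 ratios were 0.07 in ECs, -0.05 in Fibroblasts and -0.12 in MPs. In mesothelial-like cells the sum was 3173 and 3568 (0.17, interval 0.10 to 0.24), with 82.9% and 86.1% of it from Kcnd2, Kcnq1ot1 and Kcnt2. The sums of T cells (1693 and 1401), B cells (2041 and 1525) and adipocytes (1379 and 749) had intervals below 0, and that of glial cells (3767 and 4285) included 0.

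Beside the channels themselves, 16 partner subunits and scaffolds and 20 other cardiac ion channel genes were counted. In cardiomyocytes 10 partners were tested, of which Ank2, the ankyrin-B scaffold, was called lower, at 992 and 640 (-0.63), and 0 were called higher, against 7.06% and 7.18% of all genes. The median of the 10 was -0.28. Of the other ion channel genes 15 were tested, 3 were called lower and 0 higher, and the median was -0.30. Among the 3 were Cacna1c, the L-type calcium channel pore, at 2602 and 1603 (-0.70, interval -0.76 to -0.64), and its beta subunit Cacnb2 at 862 and 569 (-0.60, interval -0.70 to -0.49). The values of both lists were not centred on gene span or set to the same mix of clusters. In cardiomyocytes the median of all genes in the longest group of span was -0.27, close to the medians of both lists. In Mural Cells 2 of 5 partners (Ank2 and Dlg1) and 1 of 12 other ion channel genes (Cacna1d) were lower and 0 were higher, against 6.11% and 6.0% of all genes, with medians of -0.50 and -0.03. In ECs and Fibroblasts 0 of 6 partners were called in each. Of the other ion channel genes, 1 of 16 was called lower in ECs and 1 of 15 in Fibroblasts, and 0 were called higher. Over all genes, 3.88% were called lower and 5.31% higher in ECs, and 3.30% and 4.89% in Fibroblasts.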

How the data were processed

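Nuclei of mouse hearts were profiled by single-nucleus RNA-seq with the GEXSCOPE kit, 1 library of the control group and 1 of the PD-1 inhibitor group, grouped by their treatment label. The authors deposited UMI counts as whole numbers, 1 matrix of genes by barcodes for each library, not normalized. The submitters' processing notes name the builds GRCm38 and mm10. The aligner, counter, annotation and strand setting are not given in the sources used here. The channel genes, the gene lists, the markers and the alternatives were chosen with earlier results of these data known.

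Nuclei had to have at least 200 genes and no more than 20% of UMIs from mitochondrial genes, and Scrublet doublets (592 control and 308 PD-1 inhibitor barcodes) were removed. Each nucleus was scaled to 10000 UMIs before taking logs. After removal of the channel genes, 2000 variable genes were scaled and reduced to 30 principal components. Leiden clustering (scanpy 1.11.5, leidenalg 0.10.2) used 15 neighbours and resolution 1. Scaling was chosen after the clusters were seen. Each cluster was named for the type whose marker list was detected most fully, with 3 markers as the minimum. The cell type names were rebuilt in this way.

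UMIs were summed by cell type and library and expressed per 1000000 UMIs of all genes. Log2 ratios set PD-1 inhibitor against control after 0.5 UMI was added to both. Their intervals are exact binomial intervals conditional on the sum of both counts. Levels have exact Poisson and shares exact Clopper-Pearson intervals (scipy 1.17.1). A gene was tested if the 2 libraries held 50 or more of its UMIs in that type and called past 1.5-fold with an interval that left out 0. The steps were tested on simulated data for cardiomyocytes: of 19460 genes 200 were changed, 2-fold changes of tested genes were called in 82.8%, and unchanged genes in 1.73%. The simulated counts varied by counting error only. So these shares do not cover differences between hearts, cluster mix or gene span, and are not error rates for the real libraries. Spans and overlaps come from GENCODE vM21 on GRCm38.

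Named are all channel genes with at least 200 UMIs in cardiomyocytes or 100 in Mural Cells, the 3 with the highest level in each other type, every called gene, and the genes of known cardiac and vascular potassium currents. Some genes that this rule or the lists name, or that lead a cluster, are not reported here. Some of their clusters and partners were named after their values were seen. Values without 1 cluster, or without the leading gene of a class, were added after the data were seen. Alternatives covered the filters, doublets, clustering, scaling total, centring, the summary over nuclei, thinning, cluster mix, the members summed and the calling rule.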

Additional observations from a re-analysis of the deposited data

Results flagged for a closer look

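Some channel genes differed in opposite directions between cell types or clusters, with counting intervals on opposite sides of 0. These differences between types were not tested, and hearts of the same group may differ as much. The log2 ratio of Kcnd2 was 0.33 in mesothelial-like cells, -0.89 in cardiomyocytes and -0.62 in MPs, where its level was near that of cardiomyocyte markers. That of Kcnq5 was 0.44 in Fibroblasts, -0.63 in mesothelial-like cells, -0.50 in T cells and -0.53 in B cells, and the Fibroblast value was 0.07 without the Wif1 and Chad cluster and -0.20 after thinning. Kcnt2 had 0.17 in ECs, -0.34 in Mural Cells and -0.13 in Fibroblasts. The EC value of Kcnt2 was -0.06 with EC clusters weighted alike and 0.02 without the cluster with Aplnr, and the Fibroblast value -0.01 without the cluster with Rgs17. Kcnn3 had 0.47 in Fibroblasts and -0.62 in ECs. Kcnk3 had 0.96 in Fibroblasts, on 58 UMIs at the level of cardiomyocyte markers there, and -0.77 in adipocytes, where it was 0.13 after thinning. Between the clusters of Mural Cells, Kcnq5 had -0.90 in the pericyte-like and 0.99 in the smooth muscle-like cluster, and Kcnt2 had -0.49 and 0.86.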

How the results depend on the processing

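The sum over channel genes in cardiomyocytes was below the control under all alternatives run. In place of -0.50 it was -0.43 with at most 5% mitochondrial UMIs, -0.42 without clusters of over 5% mitochondrial UMIs, -0.31 centred on genes of like span, -0.37 as a mean over nuclei, -0.42 after thinning, -0.38 with the same mix of clusters and -0.31 without Kcnd2. Other sums rested on single genes or on span. The mural sum was 0.29 without Kcnq1ot1 and -0.10 without Kcnj8. The EC sum was 0.02 centred on span, -0.21 with the same mix, 0.07 without Kcnq1ot1 and -0.26 without Kcnt2. The Fibroblast sum was -0.03 centred on span and -0.05 without Kcnq1ot1, and the MP sum -0.13 and -0.12. In cardiomyocytes 5 genes were called, against 2 with at most 5% mitochondrial UMIs, 3 without clusters over 5%, and 1 at 2-fold. The share of all genes called under these alternatives is not given beside these counts. A minimum of 100 UMIs left 37 of the 61 genes. Of 808 values of single genes under the alternatives, 757 stayed within the counting interval. The sign changed in 42, of which 41 belonged to ratios that had not been called and 1 to a called ratio, Kcnk3 in adipocytes at 0.13 after thinning. The ratio of Kcnd2 in cardiomyocytes ranged from -0.95 to -0.55, and that of Kcnj8 in Mural Cells from 0.37 to 0.67. The causes of these shifts were not tested. Leaving out a replicate could not be run with 1 library per group. No paired analysis was possible because each group has 1 library.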
